A study of Mus musculus with 6 samples.

Results

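The addition of ZEB2 to melanocytes with active BRAF was read from 2 of the 6 arrays of the series, the array labelled with BRAF activated plus ZEB2 and the array labelled with BRAF activated alone, both chosen by those labels. All 6 arrays held RNA of melan-a, an immortal pigment cell line grown from melanoblasts of C57BL/6 mouse embryos and transduced with delta-BRAF-ER, an active BRAF kinase that works once tamoxifen is given. BRAF-off stands for these cells without activation, BRAF-on for the cells after activation, and the ZEB2 array for cells after activation that had also been transduced with ZEB2. The other 3 arrays held activated cells with SNAIL2, TWIST1 or ZEB1 in place of ZEB2. None of the labels names cells given tamoxifen without delta-BRAF-ER, or activated cells with an empty vector, so an effect of transduction or a difference between cultures cannot be told apart from an effect of ZEB2. Each group had 1 array. No spread could be estimated, no test was run, and every fold below describes a pair of arrays whose number limits the precision.

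Values are signals on a linear scale that the authors scaled to a common level on each array. A gene was compared where at least 1 array of the pair reached a floor of 63.7 signal units, the median of all values, and values under the floor were raised to it. Where 1 array lay under the floor, the ratio is a lower bound and is written as "at least". A ratio of 2-fold or more, a log2 ratio of at least 1, was the size that counted. Levels of different genes are not set against each other, since each probe set has its own brightness. In RNA of a whole culture, fewer cells of a kind and less RNA per cell cannot be told apart.

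ZEB2 is a zinc finger and homeodomain repressor that binds E-boxes, recruits corepressor complexes and binds SMAD proteins of the TGF-beta pathway. It is best known for silencing epithelial genes such as Cdh1 in epithelial to mesenchymal transition, and it is needed in the neural crest, from which melanocytes and Schwann cells arise. Melanocyte identity depends on MITF, which switches on the melanin enzymes and the proteins that build, load and move melanosomes, and which is itself driven by SOX10, PAX3 and CREB. BRAF signals through MEK and ERK to immediate early genes, AP-1 factors, secreted proteases and feedback phosphatases.

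The genes at least 2-fold higher on the ZEB2 array than in BRAF-on included pigment genes, and those at least 2-fold lower included cytokine genes and the collagenase gene Mmp1a. Promoters of some pigment and collagenase genes are shown because they hold letters known as binding sequences of factors for those groups. Each covers the 150 bases just before the start of the gene in RefSeq (assembly GRCm38.p6), read 5′ to 3′ on the gene's strand. Capitals mark CATGTG, the core of the M-box that MITF binds, which in Kcnj13 lies on the other strand.
Tyr, chr7:87493513-87493662, minus strand: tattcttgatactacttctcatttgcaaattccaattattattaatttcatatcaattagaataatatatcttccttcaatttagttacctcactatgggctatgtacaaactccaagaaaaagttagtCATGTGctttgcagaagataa
Tyrp1, chr4:80834063-80834212, plus strand: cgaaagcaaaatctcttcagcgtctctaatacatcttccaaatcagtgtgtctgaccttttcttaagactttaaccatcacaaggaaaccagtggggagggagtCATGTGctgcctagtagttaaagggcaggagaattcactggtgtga
Trpm1, chr7:64153685-64153834, plus strand: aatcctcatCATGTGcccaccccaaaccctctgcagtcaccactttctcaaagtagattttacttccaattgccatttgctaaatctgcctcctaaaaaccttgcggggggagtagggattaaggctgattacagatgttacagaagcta
Kcnj13, chr1:87394730-87394879, minus strand: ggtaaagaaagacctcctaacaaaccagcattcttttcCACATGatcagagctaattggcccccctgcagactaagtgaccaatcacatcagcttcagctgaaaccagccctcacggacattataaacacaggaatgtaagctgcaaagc
In Tyr the match begins 21 bases before the start, in Tyrp1 46, in Trpm1 141 and in Kcnj13 112. Within 250 bases before the start, on either strand, CATGTG stood in 10 of 54 promoters of the 5 pigment cell lists described below (18.5%), in 7.1% of the 9217 compared genes that have a promoter in the table, and in 12.2% of all 27025 promoters. By list, 3 of 5 melanin genes and 4 of 9 transporter and channel genes held it, against 1 of 19 melanosome transport genes and 0 of 9 melanocyte transcription factors.

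For the lower side, capitals mark TGANTCA, the sequence of the AP-1 factors, which is its own reverse complement. None of the sequences searched contains another. Mmp1a was at least 2-fold lower, and Mmp13, another collagenase gene, was lower by less than that (a log2 ratio of -0.87). The heparanase gene Hpse and the protease genes Mmp2 and Adam12 were at least 2-fold higher.
Mmp1a, chr9:7463991-7464140, plus strand: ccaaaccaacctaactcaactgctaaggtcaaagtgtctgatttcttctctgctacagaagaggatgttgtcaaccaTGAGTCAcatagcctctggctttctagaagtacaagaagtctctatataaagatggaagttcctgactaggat
Mmp13, chr9:7272364-7272513, plus strand: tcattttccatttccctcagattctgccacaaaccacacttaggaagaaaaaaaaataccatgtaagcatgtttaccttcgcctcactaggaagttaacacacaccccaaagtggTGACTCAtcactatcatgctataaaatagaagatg
TGANTCA stood in 8 of 43 promoters of the genes at least 2-fold lower on the ZEB2 array (18.6%), in 10 of 160 of those at least 2-fold higher (6.25%), in 4.18% of compared genes and in 6.87% of all promoters. The E-box CACCTG, on either strand, which ZEB and SNAIL proteins bind, stood in 7 of 43 promoters of the lower genes (16.3%), 24 of 160 of the higher genes, 14.5% of compared genes and 17.1% of all promoters. A match describes letters only, and no binding was measured.

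The array label was first set against the introduced gene. Zeb2 has 5 probe sets. The one with the highest mean gave 953 in BRAF-off, 806 in BRAF-on and 1132 on the ZEB2 array. The same probe set gave 362 with SNAIL2, 901 with TWIST1 and 540 with ZEB1. By it the ZEB2 array was the highest of the 6 and stood 1.40-fold above BRAF-on. This did not hold for every Zeb2 probe set. The TWIST1 array was higher than the ZEB2 array in one (787 and 756) and in another (729 and 700). All 5 probe sets were higher on the ZEB2 array than in BRAF-on, by 1.15-fold to 1.70-fold, and none by 2-fold. The sources used here do not say where the probes lie relative to the introduced sequence, and the array is named by its label. Of the other epithelial to mesenchymal transition factors, Snai2 was level (4175 in BRAF-on and 4201 on the ZEB2 array). Zeb1 was at 134 and 168, Twist2 at 141 and 204, and Twist1 was lower, at 338 and 209. Snai3 was at 44.4 and 67.5, and Snai1 was under the floor on all 6 arrays.

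The cells carried melanocyte markers on all 3 arrays used here. All 8 melanocyte markers (Mitf, Tyr, Tyrp1, Dct, Pmel, Mlana, Sox10 and Kit) reached the floor, with a summed signal of 88578 in BRAF-off, 65208 in BRAF-on and 112366 on the ZEB2 array. Of 7 fibroblast markers 4 reached it on each (Col1a1, Col1a2, Col3a1 and Dcn), with sums of 7477, 6710 and 6846, while Pdgfra, Thy1 and Lum stayed under it. Of 5 keratinocyte markers 1 to 2 reached the floor, with sums of 376 to 414. Of 6 macrophage and leukocyte markers 2 did (Cd68 and Csf1r), with sums of 291 to 295. Of 4 endothelial markers 0 to 2 did, with sums of 83.4 to 256. Schwann markers, 3 of which have a probe set, summed to 789, 569 and 1457, and most of that sum was S100b. The poly-A controls, bacterial RNA mixed into each sample before labelling, also differed: their median ratio over 24 probe sets was 1.35-fold higher on the ZEB2 array than in BRAF-on, with 23 above 0 on the log2 scale. The part of that difference in the results below was not tested.

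With values under the floor raised to it, more genes stood at least 2-fold higher than lower on the ZEB2 array. Against BRAF-on, 199 of 11322 compared genes stood at least 2-fold above (1.76%) and 66 at least 2-fold below (0.583%). At 3-fold these counts were 25 (0.221%) and 1 (0.00883%). Without a floor the order turned, with 1717 genes higher and 1812 lower, and with the median of each gene's probe sets the counts were 175 and 100. The median log2 ratio over all genes was -0.0048, with 49.2% above 0 and 50.8% below. The counts of list members below are to be read against these shares of all genes. Signals were averaged over both arrays on the log2 scale, with values under the floor raised to it. Their median was 330 for genes at least 2-fold higher, against 161 for the lower ones. Of these genes, 21 and 14 were lower bounds. Of the higher genes, 95 had another measured probe set, and in 90 of these it lay on the same side, by at least 1.5-fold in 65. Of the lower genes 11 had one, on the same side in 11 and by at least 1.5-fold in 7. Probe sets of a gene read the same RNA and check the probes only.

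Ratios of dim genes depended on the floor, since raising it shrinks the ratio of any gene whose lower value lies under it. With the floor raised to the 75th percentile, a signal of 476, the log2 ratios to BRAF-on of some genes named below came under 1 in size: Kcnj13 (0.52), Cfap54 (0.98), Rab17 (0.92), Rab27a (0.20), Lef1 (0.23), Chsy3 (0.14), Fah (0.09) and Nipal3 (0.98) on the higher side, and Dusp5 (-0.43), Gzme (-0.67), Lif (-0.10) and Mmp1a (-0.99) on the lower. With the floor added to each signal instead, Id1 was at -0.96, Gch1 at -0.92, Irf8 at -0.92, Qpct at -0.79, Tmlhe at -0.83, Hs6st2 at -0.84 and Mcoln3 at 0.84. Lyst (0.99) and Adam12 (0.98) came just under 1 when the arrays were centred on their medians.

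**Figure D1:**
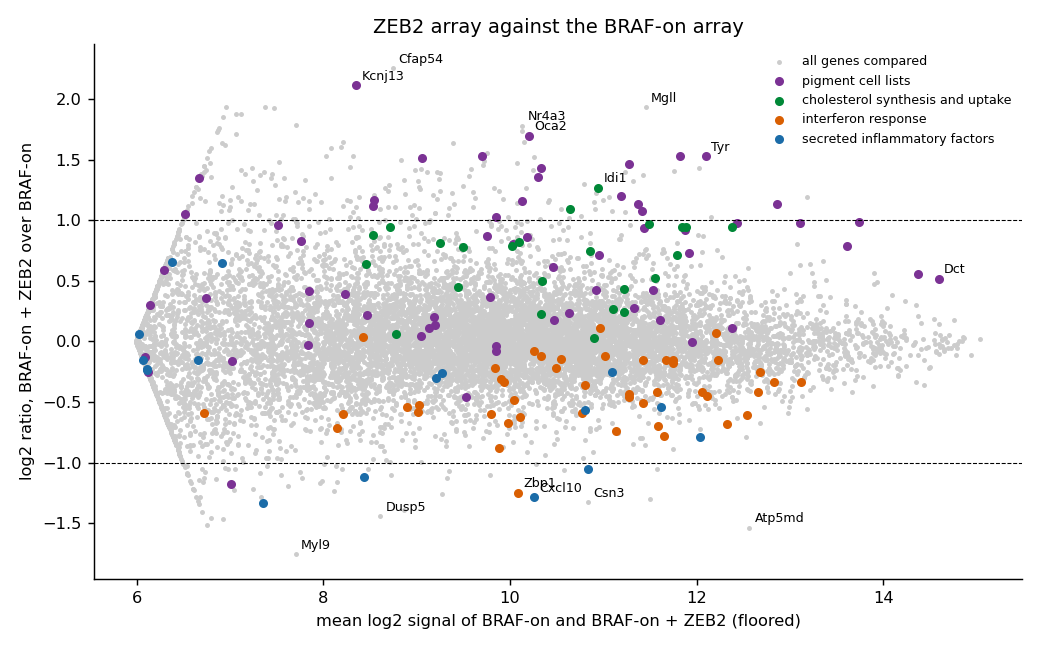
Log2 ratio of the ZEB2 array over BRAF-on for each compared gene (y axis) against its mean log2 signal on both arrays (x axis), 1 point a gene, with pigment cell lists, cholesterol genes, interferon response genes and secreted inflammatory factors in colour and dashed lines at 2-fold. Pigment and cholesterol genes lie mostly above 0 across the range of signal, interferon response genes below it, and the grey points fan out at low signal.

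Each difference was then set against BRAF-off. Of the 199 higher genes, 198 were also above BRAF-off (99.5%), and 45 were at least 2-fold above it (22.6%). These genes were chosen for a high value on the same ZEB2 array, as the lower ones were for a low value, so the shares describe them and support nothing. The exception was Flnc, an actin crosslinker, at 1322 in BRAF-off, 462 in BRAF-on and 1127 on the ZEB2 array. Of the 66 lower genes, 40 were below BRAF-off (60.6%) and 11 at least 2-fold below it (16.7%). Still at least 2-fold above BRAF-off were 6 of them: Csn3, Fabp4, Gch1, Mmp1a, Nefm and Zfp352. The ZEB2 array was the highest of all 6 arrays for 43 of the higher genes and the lowest of all 6 for 25 of the lower ones. In the direct comparison of the ZEB2 array with BRAF-off, 113 of 11088 genes lay at least 2-fold above (1.02%) and 36 at least 2-fold below (0.325%). For BRAF-on against BRAF-off these counts were 116 (1.04%) and 43 (0.384%) of 11200 genes. The comparisons share arrays, so their values are given side by side and are not independent of each other.

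The pigment cell transcription factors came first in the order of the pathway. Mitf was at 7191 in BRAF-off, 5036 in BRAF-on and 11060 on the ZEB2 array, a log2 ratio of 1.14 to BRAF-on and of 0.62 to BRAF-off. With SNAIL2 it was at 14255, with TWIST1 at 245 and with ZEB1 at 1410. The ZEB2 array was the highest of the 3 arrays used here, and the second of all 6 behind that of SNAIL2. Another, dimmer Mitf probe set gave 1.47-fold, and with the median of both probe sets the log2 ratio was 0.85, under 2-fold.

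Sox10, which activates Mitf in the neural crest lineage, stood at 3777, 2730 and 5182 in BRAF-off, BRAF-on and on the ZEB2 array, 1.90-fold above BRAF-on. Lef1, the nuclear partner of beta-catenin, was at 443, 249 and 559 (2.25-fold). Irf4, a pigmentation factor that works with MITF on Tyr, was at 77.1, under the floor (24.2) and at 163, at least 2.55-fold. Of these 3 arrays, BRAF-on was the lowest and the ZEB2 array the highest for each gene. Irf4 was dim, and its log2 ratio was 0.29 with the floor at the 60th percentile. Pax3 (1.35-fold), Tfap2a (1.53-fold), Sox5 (1.95-fold), Tfec (1.78-fold) and Tfeb (1.32-fold) were higher by less than 2-fold. Tfe3 was level, and Tfap2b was 1.37-fold lower. In the list of melanocyte transcription factors 3 of 11 measured genes passed 2-fold upwards (1.76% of all genes did) and 0 downwards, with a median log2 ratio of 0.83, and 0.33 against BRAF-off. Sox9 was under the floor on all 3 arrays.

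The melanin enzymes and fibril proteins were higher than BRAF-on in 7 of 8 members (49.2% of all genes were), though 1 passed 2-fold upwards (1.76% did). Tyr, the enzyme that starts melanin synthesis, was at 5366 in BRAF-off, 2583 in BRAF-on and 7467 on the ZEB2 array, 2.89-fold above BRAF-on. Its 3 probe sets gave 2.70-fold to 3.33-fold. In each of them the order was BRAF-on lowest, BRAF-off between and the ZEB2 array highest.

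Pmel, which forms the fibrils that melanin is laid on, was at 13090, 9740 and 19313 (1.98-fold), and Mlana, a melanosome membrane protein, at 11194, 6270 and 12368 (1.97-fold). Gpnmb, a relative of Pmel, was at 11621, 9524 and 16480 (1.73-fold). Mreg, which acts in melanosome transfer, was at 1446, 793 and 1384 (1.75-fold), so that the ZEB2 array was level with BRAF-off. The enzymes Tyrp1 and Dct differed less, at 17439 and 25678 (1.47-fold) and at 20660 and 29621 (1.43-fold) in BRAF-on and on the ZEB2 array. Qpct, a glutaminyl cyclase, went the other way at 95.3, 194 and 85.6, 2.27-fold below BRAF-on and level with BRAF-off. The median log2 ratio of these 8 genes was 0.80 to BRAF-on and 0.24 to BRAF-off.

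Transporters and channels of the melanosome and the cell membrane held more genes past 2-fold. Among 12 measured members, 6 passed 2-fold upwards from BRAF-on, as 1.76% of all genes did, and 0 downwards, with a median of 0.82, and 0.44 against BRAF-off. Kcnj13, an inward rectifier potassium channel of pigmented cells, was at 542 in BRAF-off, 157 in BRAF-on and 682 on the ZEB2 array, 4.34-fold above BRAF-on and 1.26-fold above BRAF-off. Oca2, a melanosomal anion channel, was at 1351, 652 and 2118 (3.25-fold). Slc45a2, a transporter of the melanosome, was at 3900, 2128 and 6135 (2.88-fold). In all 3 genes BRAF-on was the lowest of these arrays and the ZEB2 array the highest.

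Gpr143, a melanosomal receptor that sets organelle size, was at 968, 487 and 1410 (2.89-fold), and Trpm1, a cation channel and old marker of melanocytes, at 2483, 1787 and 3924 (2.20-fold). Mcoln3 was at 55.0 and 45.2, both under the floor, and at 132 on the ZEB2 array, at least 2.07-fold. The copper pump Atp7a (1460 and 1718), the cystine transporter Slc7a11 (94.4 and 121) and its partner Slc3a2 (3979 and 3959) differed little between BRAF-on and the ZEB2 array.

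Genes of melanosome transport lay above BRAF-on in 19 of 20 measured members, where 49.2% of all genes did. Of them, 6 passed 2-fold upwards (1.76% of all genes did) and 0 downwards. The median was 0.40 to BRAF-on and 0.38 to BRAF-off. In the complex that ties melanosomes to actin, Rab27a was at 284, 252 and 547 (2.17-fold) and its adaptor Mlph at 1433, 784 and 2118 (2.70-fold). The motor Myo5a was at 1550 and 2546 in BRAF-on and on the ZEB2 array (a log2 ratio of 0.72). Sytl2, another effector of Rab27a, was at 1294, 785 and 2015 (2.57-fold). Other small GTPases of the list were Rab38 at 2651, 1496 and 4125 (2.76-fold) and Rab17 at 490, 315 and 900 (2.86-fold). Rab32 was at 3380, 2007 and 3837 (log2 ratio 0.94). Lyst, a regulator of lysosome size, was 2.04-fold higher. Of the sorting complex subunits, Hps3 was at 0.88, Ap3b1 at 0.42 and Bloc1s3 at -0.03, while Ap3d1, Hps1, Hps4, Hps5, Hps6, Dtnbp1, Bloc1s5 and Vps33a lay between log2 ratios of 0.12 and 0.37, which for Hps6 is a lower bound. The vesicle protein gene Syngr2 was at 0.18.

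The receptors that carry growth and pigment signals were also higher. Mc1r, the receptor of melanocyte stimulating hormone, was at 2400 in BRAF-off, 1547 in BRAF-on and 3549 on the ZEB2 array (2.29-fold). Kit, the receptor of stem cell factor, was at 1316, 751 and 1675 (2.23-fold), and the neuregulin receptor Erbb3 at 2643, 1874 and 3964 (2.12-fold, or a log2 ratio of 0.87 with the median of its probe sets). Met, the receptor of hepatocyte growth factor, was at 5812, 3939 and 7750, a log2 ratio of 0.98. Bcl2 (946 and 894 in BRAF-on and on the ZEB2 array) and Ppargc1b (522 and 538) were level. Among 12 measured receptors and survival genes, 3 passed 2-fold upwards (1.76% of all genes did) and 0 downwards, with a median of 0.57 to BRAF-on and 0.30 to BRAF-off.

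**Figure D2:**
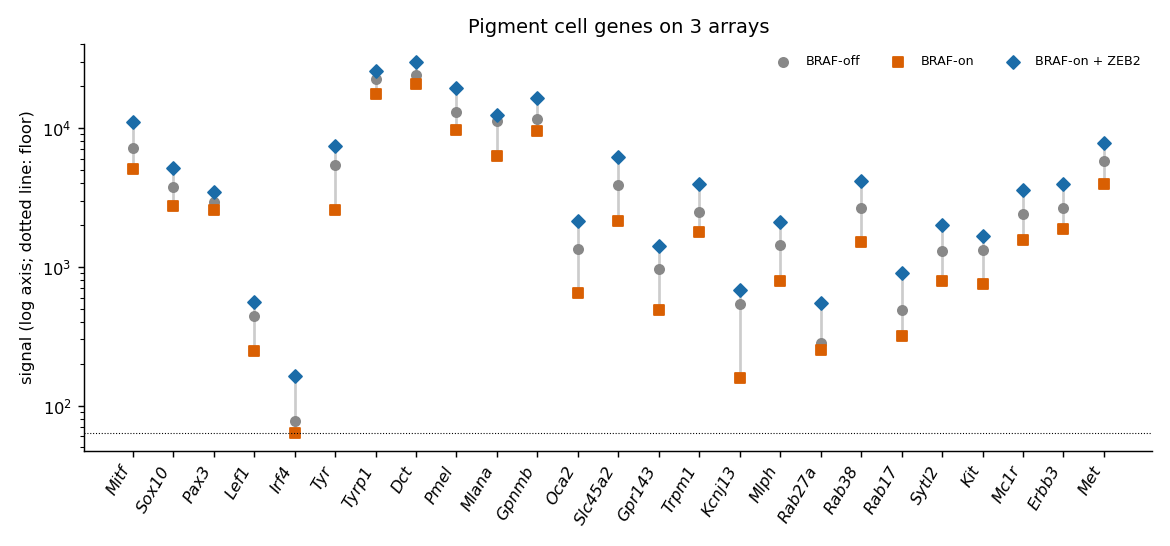
Signal (log axis) of 25 pigment cell genes on the BRAF-off, BRAF-on and ZEB2 arrays, 1 point an array, with the floor dotted. In every gene drawn the ZEB2 array is the highest of the 3, and BRAF-off lies between or close to BRAF-on.

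The largest ratio on the higher side was that of Cfap54, a protein of the ciliary axoneme, which was at 497 in BRAF-off, 197 in BRAF-on and 939 on the ZEB2 array, 4.78-fold above BRAF-on. Mgll, the lipase that breaks down monoacylglycerols, was at 2963, 1434 and 5484 (3.82-fold), and its other measured probe sets gave 3.43-fold and 3.64-fold. Nr4a3, an orphan nuclear receptor induced by cyclic AMP, was at 1083, 604 and 2077 (3.44-fold). All 3 were highest with SNAIL2 (1667, 10176 and 3984) and lay below the BRAF-on value with TWIST1 (11.5, 71.3 and 42.3).

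Tspan10, a tetraspanin, was at 1046, 614 and 2041 (3.33-fold), and the glutathione transferase gene Gsta2 at 1118, 642 and 2017 (3.14-fold). Dimmer genes with ratios of 3-fold or more were the flippase gene Atp10b (91.0 and 347 in BRAF-on and on the ZEB2 array), the transporter gene Abca8a (69.7 and 257), the succinate receptor gene Sucnr1 (72.3 and 266), Mapt, which encodes tau (74.0 and 242), the chondroitin synthase gene Chsy3 (168 and 525), the growth factor gene Pgf (68.4 and 213) and the neuronal membrane gene Gpm6a (70.3 and 216). Clmn, an actin binding protein, was at 112 and 388 by its brightest probe set, and its log2 ratio was 0.59 with the median of its probe sets. The largest bound was that of Cyp4b1, at least 3.83-fold (62.4 and 244). With the floor at the 60th percentile Abca8a (0.95), Mapt (0.87), Pgf (0.68), Gpm6a (0.70) and Cyp4b1 (0.88) came under a log2 ratio of 1.

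Genes of cholesterol synthesis and uptake were higher than BRAF-on in 24 of 24 measured members, where 49.2% of all genes lay above 0, and 2 of them passed 2-fold, where 1.76% of all genes did. Their median log2 ratio was 0.76 to BRAF-on and 0.37 to BRAF-off, with 23 of 24 above BRAF-off, where 52.6% of all genes lay above it. Srebf2, the factor that drives this pathway, was at 823 in BRAF-off, 789 in BRAF-on and 1363 on the ZEB2 array, a log2 ratio of 0.79. Insig1, which holds its processing back, was at 2583, 2060 and 4037 (0.97). Srebf1, the relative that favours fatty acid genes, was level (1940, 1895 and 1939).

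Along the pathway, Hmgcs1, the synthase at its entry, was at 5774, 3841 and 7402, a log2 ratio of 0.95. Mvk (0.88), Pmvk (0.81) and Mvd (0.95), the mevalonate enzymes, were higher by similar amounts. Idi1, the isomerase that follows them, was at 2022, 1268 and 3058 (2.41-fold), and its other probe set gave 2.08-fold. Fdps (0.94), Fdft1 (0.71) and Sqle (0.53) lead to squalene epoxide, and Lss (0.78) and Cyp51 (0.74) to and from lanosterol. Nsdhl, a sterol dehydrogenase, was at 1304, 1095 and 2334 (2.13-fold), and Msmo1, which acts with it, at 3510, 2731 and 5270 (0.95). The last steps were at 0.43 for Ebp, 0.24 for Sc5d and 0.82 for Dhcr7. In Idi1, Hmgcs1 and Mvd BRAF-on lay well below BRAF-off, whereas in Mvk, Lss, Dhcr7, Tm7sf2 and Srebf2 both were near each other and the ZEB2 array alone was higher. The promoter of Hmgcs1 held the sterol response element TCACNCCAC, shown in capitals, 137 bases before the start.
Hmgcs1, chr13:119690201-119690350, plus strand: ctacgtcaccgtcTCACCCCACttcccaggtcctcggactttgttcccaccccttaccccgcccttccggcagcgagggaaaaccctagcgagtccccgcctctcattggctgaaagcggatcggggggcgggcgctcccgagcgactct
It was 1 of 21 promoters of the list with this sequence on either strand (4.76%), against 0.922% of compared genes and 1.04% of all promoters.

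**Figure D3:**
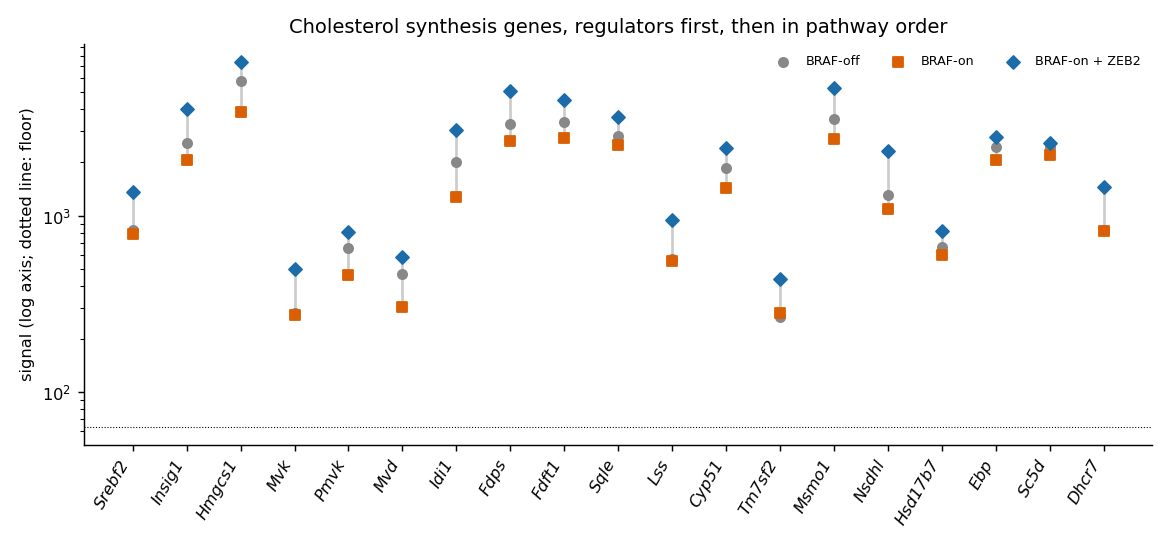
Signal (log axis) of 19 cholesterol synthesis genes on the BRAF-off, BRAF-on and ZEB2 arrays, regulators first and enzymes in pathway order, 1 point an array, with the floor dotted. The ZEB2 array is the highest of the 3 in every gene drawn (Srebf1, which was level, is not drawn), while BRAF-off lies at BRAF-on in some genes and between both arrays in others.

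Fatty acid genes followed with smaller ratios. All 19 measured members lay above 0 (49.2% of all genes did), 2 of them at least 2-fold (Mgll, above, and Lpin1; 1.76% of all genes were), with a median of 0.40 to BRAF-on and 0.32 to BRAF-off. Lpin1, a phosphatidate phosphatase, was at 416, 296 and 638 (2.16-fold, or a log2 ratio of 0.70 without probe sets that match several transcripts). The desaturase Scd1 was at 3860, 3061 and 5633 (0.88) and the synthase Fasn at 3498, 2676 and 4701 (0.81). Of 8 genes of sterol efflux, the exporter Abca1 was at 2382, 1725 and 3181 (1.84-fold), and the median of the list was 0.51. Genes of lysosomes and autophagy lay above 0 in 29 of 37 cases, where 49.2% of all genes did, with a median of 0.31 to BRAF-on and 0.30 to BRAF-off. The share past 2-fold, 1 of 37, was near the 1.76% of all genes. That gene was Rragd, a GTPase that recruits mTORC1 to lysosomes, at 966, 502 and 1476 (2.94-fold), but its log2 ratio was 0.03 with the median of its probe sets. Ctsd, the main aspartyl protease of lysosomes, was at 8867, 7088 and 11001 (0.63).

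Among genes known as outputs of ERK, 18 of 30 lay below BRAF-on (50.8% of all genes did), and 2 passed 2-fold downwards (0.583% of all genes did) and 0 upwards. The median was -0.17 to BRAF-on and 0.12 to BRAF-off. Dusp5, a nuclear ERK phosphatase, was at 198 in BRAF-off, 644 in BRAF-on and 236 on the ZEB2 array, 2.72-fold below BRAF-on. Lif, a cytokine, was at 218, 511 and 235 (2.18-fold lower). The AP-1 member Fosl1 was at 412, 995 and 606, the immediate early factor Egr1 at 1051, 2061 and 1352, the growth factor Hbegf at 901, 1558 and 988 and the urokinase receptor Plaur at 1003, 1843 and 961. In each of these BRAF-on was the highest of the 3 arrays.

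Several classical feedback genes of the same pathway had BRAF-on as the lowest of the 3 arrays. Dusp6 was at 6514, 6268 and 7476, Dusp4 at 3953, 3241 and 4502, Spry2 at 1965, 1569 and 1658, and Etv5 at 6449, 4962 and 5839. Spry4 (625, 667 and 657) and Ccnd1 (9373, 8944 and 8936) differed little.

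Some secreted proteases that were dim in BRAF-off and bright in BRAF-on stood between those levels on the ZEB2 array. Mmp1a, a collagenase, was at 10.1 (under the floor), 946 and 433, 2.18-fold below BRAF-on. Mmp10, a stromelysin, was at 38.4 (under the floor), 2606 and 1382 (a log2 ratio of -0.92), and the collagenase Mmp13 at 86.1, 683 and 373 (-0.87). Serpinb2, an inhibitor of plasminogen activators, was at 7.92 (under the floor), 1310 and 718 (-0.87).

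The ZEB2 array was thus lower than BRAF-on in all 4 and still far above BRAF-off, by at least 21.7-fold for Mmp10 and 4.33-fold for Mmp13. Other members passed 2-fold upwards: heparanase (Hpse) was at 177, 154 and 443 (2.89-fold above BRAF-on), the gelatinase Mmp2 at 937, 744 and 1788 (2.40-fold) and the metalloprotease Adam12 at 1203, 900 and 1812 (2.01-fold). The inhibitor Timp1 was at 6219, 7742 and 4488 (-0.79). Among 16 measured members of the list of proteases and inhibitors, heparanase included, 3 passed 2-fold upwards (1.76% of all genes did) and 1 downwards (0.583%). Their median was -0.41 to BRAF-on and 0.76 to BRAF-off.

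Genes outside the list of proteases and inhibitors also had BRAF-on highest and the ZEB2 array between it and BRAF-off. Fabp4, a fatty acid carrier, was at 15.4 (under the floor), 959 and 401 (2.39-fold below BRAF-on). Csn3, a casein, was at 430, 2894 and 1153 (2.51-fold), and Gch1, the first enzyme of tetrahydrobiopterin synthesis, at 65.6, 378 and 171 (2.22-fold). Irf8, a factor of myeloid cells, was at 60.8 (under the floor), 252 and 104 (2.43-fold), and the granzyme gene Gzme at 230, 756 and 288 (2.62-fold). With ZEB1, Csn3 was at 14634, Fabp4 at 6449 and Gch1 at 1227, the highest of all 6 arrays for each.

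Secreted inflammatory factors were lower than BRAF-on in 14 of 17 measured members, where 50.8% of all genes were, 4 of them by at least 2-fold, where 0.583% of all genes were, and 0 higher by that much. Ccl2, a monocyte chemokine, was at 1098 in BRAF-off, 2644 in BRAF-on and 1272 on the ZEB2 array (2.08-fold lower). Cxcl10, a chemokine induced by interferon, was at 1357, 1912 and 784 (2.44-fold), and Il6 at 203, 260 and 103 (2.52-fold). Ccl2 thus came near BRAF-off, and Cxcl10 and Il6 lay below it, by log2 ratios of -0.79 and -0.97. Il6 was dim, and with the floor at the 60th percentile its ratio to BRAF-on was -0.97. Ccl5 was at 1008, 2166 and 1466, and Igfbp7 at 4754, 5535 and 3207. The median of the list was -0.26 to BRAF-on and -0.10 to BRAF-off.

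Interferon response genes were lower in 42 of 45 measured members, where 50.8% of all genes lay below 0, but by small amounts. Their median log2 ratio was -0.42 to BRAF-on and -0.11 to BRAF-off, and 1 passed 2-fold, where 0.583% of all genes did. Zbp1, a sensor of nucleic acids, was at 1173, 1673 and 704 (2.38-fold lower, or a log2 ratio of -0.81 without probe sets that match several transcripts). The immunoproteasome subunit Psmb8 was at 753, 1280 and 697 (-0.88), the GTPase Gbp3 at 3303, 4230 and 2458 (-0.78) and Stat2, which carries the type I interferon signal, at 245, 362 and 221 (-0.71). The RNA sensor Ifih1 was at 3104, 3526 and 2647 (-0.41) and Ifit1 at 4095, 4918 and 3689 (-0.41). Rsad2 (7141 and 5981), Ifit2 (2910 and 2617) and Irf9 (2159 and 1986) were nearer to BRAF-on, and Trim25, Samd9l and Mx2 lay above it.

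On the array with TWIST1 Zbp1 was at 6175 and Cxcl10 at 4312, the highest of all 6. MHC class I genes had a median of -0.26 to BRAF-on, with 0 of 12 past 2-fold (1.76% of all genes were higher and 0.583% lower). H2-K1 was at 6187, 9457 and 7338 and H2-D1 at 8613, 12708 and 9678. The interferon-stimulated response element, searched on both strands, stood in 12 of 34 promoters of the interferon list (35.3%), against 2.59% of compared genes and 3.04% of all promoters.

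**Figure D4:**
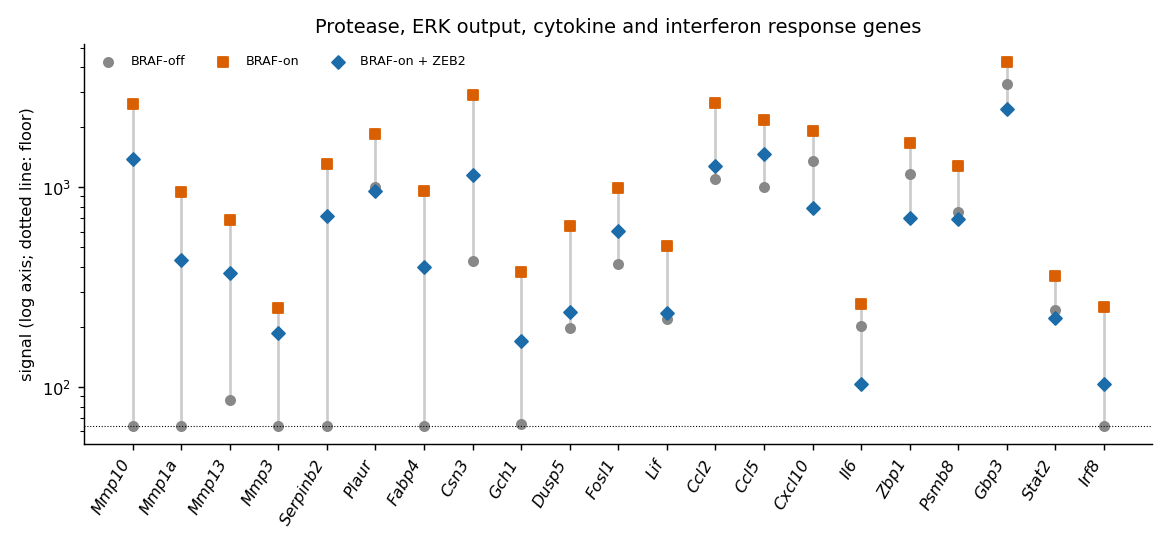
Signal (log axis, values under the floor drawn at it) of protease, ERK output, cytokine and interferon response genes on the BRAF-off, BRAF-on and ZEB2 arrays, 1 point an array, with the floor dotted. BRAF-on is the highest of the 3 in every gene drawn, and the ZEB2 array lies between the others for the proteases. It lies below both for Plaur, Cxcl10, Il6, Zbp1, Psmb8, Gbp3 and Stat2.

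Contractile genes were lower in 19 of 20 measured members, where 50.8% of all genes were, by a small median of -0.16 to BRAF-on and -0.19 to BRAF-off. A single member passed 2-fold downwards, where 0.583% of all genes did. That member, Myl9, the regulatory light chain of smooth muscle myosin, was at 330 in BRAF-off, 383 in BRAF-on and 113 on the ZEB2 array, 3.38-fold below BRAF-on and the largest measured ratio on the lower side. Tagln was at 2441, 1596 and 897 (-0.83) and Acta2 at 5701, 5236 and 3909 (-0.42). In all 3 the ZEB2 array was below both other arrays.

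Genes of the TGF-beta and BMP response lay on both sides, with 13 of 22 measured members below BRAF-on, where 50.8% of all genes were. Their median was -0.13 to BRAF-on and -0.09 to BRAF-off, and 1 passed 2-fold downwards (0.583% of all genes did) and 0 upwards. The members farthest below were the following. Id1, an inhibitor of helix-loop-helix factors, was at 1811, 1760 and 874, 2.01-fold below BRAF-on, and its relative Id3 at 2951, 2762 and 1728 (-0.68). The inhibitory Smad7 was at 485, 616 and 366 (-0.75) and the ligand Bmp4 at 184, 236 and 121 (-0.96). The farthest above were Id2, at 3167, 1692 and 2700 (0.67), and Id4, at 192, 177 and 268 (0.60).

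Epithelial junction genes, the class that ZEB2 is known to repress, were mostly under the floor. Of 34 with a probe set, 12 were measured on at least 1 array of the pair. Of these, 8 lay above 0 (49.2% of all genes did) and 0 past 2-fold upwards (1.76%) or downwards (0.583%). The largest ratios were those of dim genes, Crb3 at 68.6 and 124 and Grhl2 at 66.2 and 95.9 in BRAF-on and on the ZEB2 array, and Grhl2 was at -0.05 without probe sets that match several transcripts. The median was 0.27, and it turned to -0.13 after the floor was raised to the 75th percentile and to -0.004 without a floor. Their promoters held the E-box CACCTG in 9 of 19 (47.4%), against 14.5% of compared genes and 17.1% of all promoters. Mesenchymal and matrix genes had a median of 0.06, with 1 of 22 at least 2-fold higher (Mmp2), where 1.76% of all genes were. Vim (29501 and 30119), Cdh2 (4191 and 4220) and Fn1 (15255 and 17162) differed little. The 17 measured corepressor partners of ZEB2 had a median of 0.07, with 0 past 2-fold (1.76% of all genes were higher and 0.583% lower). The SMAD gene Smad3 was at 1725 and 2026.

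A smaller set of genes was at least 2-fold from both BRAF-on and BRAF-off, 45 on the higher side and 11 on the lower. Fah, the last enzyme of tyrosine breakdown, was at 122 in BRAF-off, 167 in BRAF-on and 508 on the ZEB2 array, log2 ratios of 2.06 and 1.61. S100b, a calcium binding protein of glia and melanocytes, was at 569, 380 and 1183 (3.11-fold above BRAF-on), and its other probe set gave 3.09-fold. Ndrg1, a gene of stress and differentiation, was at 957, 720 and 2066 (2.87-fold), and its 5 probe sets gave 2.55-fold to 2.87-fold. For Fah, S100b and Ndrg1 the ZEB2 array stood above both BRAF-off and BRAF-on. So did the SNAIL2 array, at 990, 1018 and 2950.

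Trp53inp1, a p53 target, was at 611, 469 and 1255 (2.68-fold, or a log2 ratio of 0.43 with the median of its probe sets). Nipal3, a magnesium transporter, was at 387, 396 and 938 (2.37-fold), Tmem177 at 111, 108 and 283 (2.61-fold) and the death receptor gene Tnfrsf21 at 242, 245 and 565 (2.31-fold, or 0.37 without probe sets that match several transcripts). Bmp7, a ligand of the TGF-beta family, was under the floor in BRAF-off (34.9) and BRAF-on (32.7) and at 167 on the ZEB2 array, the highest of all 6. Chl1, a neural adhesion molecule, was at 16.6 and 46.0, both under the floor, and at 193, also the highest of all 6. Ttpa, which carries vitamin E, was at 66.9, 59.9 and 217, and the protocadherin gene Pcdh19 at 53.3, 65.8 and 176. With SNAIL2 Trp53inp1 was at 1362, Nipal3 at 1409, Tmem177 at 339 and Tnfrsf21 at 759, each above the ZEB2 array. Pcdh19 was also higher with SNAIL2 (284), while Ttpa was lower (128). With the floor at the 60th percentile the log2 ratios to BRAF-on were 0.33 for Bmp7, 0.54 for Chl1, 0.71 for Ttpa and 0.40 for Pcdh19.

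On the lower side of both arrays, 2 bright genes encode small mitochondrial proteins. Atp5md, a subunit of ATP synthase, was at 7516 in BRAF-off, 10317 in BRAF-on and 3555 on the ZEB2 array (2.90-fold below BRAF-on), and it was at 1503 with SNAIL2. Mrpl33, a protein of the mitochondrial ribosome, was at 2356, 2211 and 1057 (2.09-fold, or just under 2-fold with the median of its probe sets), and at 493 with SNAIL2. Both were lower on the ZEB2 and SNAIL2 arrays than on the other 4. The rest of the respiratory chain and ATP synthase list differed less, with 34 of 44 below 0 (50.8% of all genes were), 1 past 2-fold (0.583% of all genes were) and a median of -0.14. Tmlhe, an enzyme of carnitine synthesis, was at 331, 313 and 148, and Hs6st2, a heparan sulfate sulfotransferase, at 439, 402 and 197. Cdrt4, Cacng7, Ctsw and Ltbp4 were under the floor on the ZEB2 array, with bounds of 2.14-fold to 2.33-fold below BRAF-on. None of them kept that size with the floor at the 60th percentile, where the log2 ratios were -0.16, -0.11, -0.04 and -0.04. That floor, 133, lay just under their BRAF-on values of 136 to 148, so no larger ratio was possible. With the floor added to each signal, Cacng7 (-0.81), Ctsw (-0.70) and Ltbp4 (-0.74) also came under 2-fold, as did Cacng7 (-0.54) with the median of its probe sets.

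The growth machinery lay close to BRAF-on. DNA replication genes had a median of -0.03 and mitosis genes one of -0.06. Past 2-fold were 0 of 39 and 0 of 38, where 1.76% of all genes were higher and 0.583% lower by that much. Orc6 showed the largest ratio among them (2368 and 1445 in BRAF-on and on the ZEB2 array), and Cdk1 was at 9222 and 7470. Ribosomal protein genes had a median of -0.06 with 29 of 33 below 0, where 50.8% of all genes were. Genes of the unfolded protein response had a median of 0.02, although Ddit3 (1588 and 844), Nupr1 (2376 and 1354) and Atf3 (515 and 305) were lower. Schwann and glial genes had 14 of 16 members above BRAF-on (49.2% of all genes were), and S100b and Erbb3 passed 2-fold (1.76% of all genes did). Their median was 0.35 to BRAF-on and 0.03 to BRAF-off, with 8 of 16 above BRAF-off. Among them Bcan, a proteoglycan, was at 1136, 377 and 460, so that the ZEB2 array stayed with BRAF-on.

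**Figure D5:**
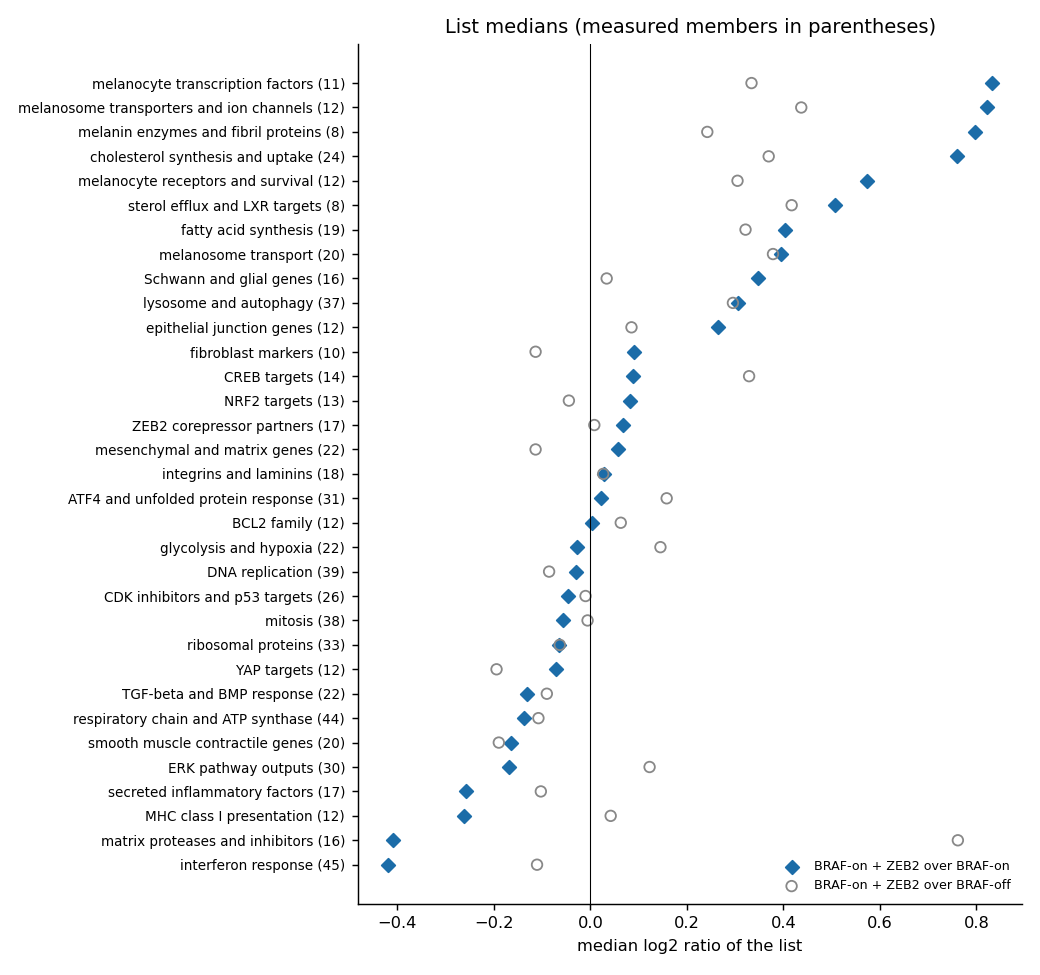
Median log2 ratio of each gene list with at least 8 measured members (number in parentheses), for the ZEB2 array over BRAF-on (filled) and over BRAF-off (open). Pigment, cholesterol and lipid lists lie above 0 in both, interferon and inflammatory lists below 0 in both, and the protease list at -0.41 against BRAF-on and 0.76 against BRAF-off.

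Beside the array with SNAIL2, the ZEB2 array had smaller ratios for most pigment genes. Receptors and survival genes were mixed. Their median to BRAF-on was 0.57 with ZEB2 and 0.38 with SNAIL2, though 8 lay below and 4 above their SNAIL2 value. Directly compared, 350 of 11268 genes lay at least 2-fold above their SNAIL2 value (3.11%) and 77 at least 2-fold below it (0.683%). Pigment lists had medians below 0 in that comparison, from -0.27 for melanin genes to -0.58 for melanocyte transcription factors. Tyr was at 7467 with ZEB2 and 9714 with SNAIL2, Mitf at 11060 and 14255, Oca2 at 2118 and 4105, Mlph at 2118 and 3915, and Mc1r at 3549 and 5806. Rab17 (900 and 805), S100b (1183 and 1018) and Idi1 (3058 and 2630) were higher with ZEB2, unlike most members of their lists. In melanosome transport 18 of 20 measured genes lay below their SNAIL2 value, as did 10 of 16 Schwann and glial genes. All genes together had a median log2 ratio of -0.07 in that comparison, so most genes of any kind lay below their SNAIL2 value. Of the cholesterol genes 18 of 24 lay below it, with a median of -0.25. Relative to BRAF-on, 12 of 24 cholesterol genes passed 2-fold upwards with SNAIL2 and 2 of 24 with ZEB2. Log2 ratios of all genes to BRAF-on also spread wider with SNAIL2, with a standard deviation of 0.67 against 0.37 with ZEB2. The share of all genes past 2-fold with SNAIL2 was not counted. Among 45 interferon response genes, 7 were at least 2-fold above their SNAIL2 value, where 3.11% of all genes were, with a median of 0.36, and Zbp1 was at 704 and 165. With TWIST1 and ZEB1 the same pigment genes were far lower, Tyr at 28.7 and 922 and Oca2 at 17.5 and 252.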

How the data were processed

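Melan-a total RNA was amplified by a 3′ in vitro transcription protocol, biotin-labelled and read on 1-colour Affymetrix mouse arrays, per the labels. The deposited values are signal intensities that the authors made with MAS5, and the submitters' processing notes name Affymetrix Expression Console 1.1. The mean of each array, trimmed of the highest and lowest 2%, was 500. No background correction or normalization was added here.

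Of 45101 probe sets 64 were controls, and 34945 had 1 gene symbol in the platform annotation. They gave 18193 genes, of which 10611 to 11269 reached the floor on an array. Where a gene had several probe sets, the one with the highest average log2 signal on the 6 arrays was used. Names were checked in RefSeq (GRCm38.p6), which also gave the promoters.

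The comparison and the 38 gene lists (805 genes with a probe set) were chosen with earlier results of these data known. Genes were picked for naming as the 15 largest ratios and 5 largest bounds per direction, leaving out clone names and genes with probe sets of opposite sign. Also picked were list members 2-fold or more apart (otherwise the 4 farthest) and all members of 3 lists. Up to 10 per direction apart from BRAF-off or moved opposite to BRAF activation were added. Not every picked gene is named in the text. Other list members, Flnc, Nefm and Zfp352 were named after their values were seen. The alternatives were quantile normalization, centring, 4 treatments of the floor, probe set choices and 3-fold. Counting was checked on simulated arrays. Python 3.11.15, numpy 2.4.6, pandas 2.3.3 and scipy 1.17.1 were used.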

Additional observations from a re-analysis of the deposited data

How the results depend on the processing

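The counts depend most on the floor, because many of the genes apart were dim. With 2-fold as the size, the ZEB2 array against BRAF-on gave 199 genes higher and 66 lower. Raising the floor to the 60th percentile left 30 lower, and the 75th percentile left 65 higher and 11 lower. The floor as a pseudocount gave 121 and 26, and no floor gave 1717 and 1812. The median of all probe sets gave 100 lower, and 3-fold gave 25 and 1. Against BRAF-off the 113 and 36 became 46 and 21 (60th percentile), 12 and 7 (75th), 2416 and 1244 (no floor), 66 and 19 (pseudocount) and 22 and 2 (3-fold), and 57 were lower with the median of probe sets. For BRAF-on against BRAF-off the 116 and 43 became 44 and 19, 15 and 6, 2584 and 1161 (no floor) and 41 and 5 (3-fold), and 21 were lower with the pseudocount.

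Of genes higher than BRAF-on, the share also above BRAF-off was 85.6% without a floor, 96.0% with the median of probe sets, and 100.0% both without probe sets matching several transcripts and at 3-fold. The share at least 2-fold above BRAF-off was 16.4% after quantile normalization, 12.3% with the floor at the 75th percentile, 51.0% with none, 14.9% with the pseudocount and 32.0% at 3-fold. Of the lower genes, 72.7% were below BRAF-off once the floor was at the 75th percentile, and 100.0% at 3-fold. The share at least 2-fold below it was 41.3% without a floor, 29.0% with the median of probe sets and 100.0% at 3-fold, where 1 gene was left.

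Among list medians, that of epithelial junction genes moved most: 0.23 when centred, 0.13 and -0.13 with the higher floors, -0.004 without one, 0.20 with the pseudocount, 0.042 with the median of probe sets and 0.10 without probe sets matching several transcripts. MHC class I genes were at -0.24 after quantile normalization, -0.14 with the floor at the 75th percentile, -0.23 with the pseudocount and -0.15 with the median of probe sets. With the median of probe sets melanosome transport was at 0.23, melanocyte receptors at 0.20 (0.15 without a floor), YAP targets at -0.27 and ERK outputs at -0.30 (-0.26 without a floor). CREB targets were at 0.34 with the floor at the 75th percentile. The cause of these shifts was not tested. The other 238 recomputed list medians stayed on their side of an absolute log2 ratio of 0.25.

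Of 90 genes picked for naming and at least 2-fold apart, 29 kept their direction and size class in every setting in which they were compared. A setting in which a gene dropped out was not counted for it. Compared in all 8 settings were Tyr, Oca2, Slc45a2, Gpr143, Trpm1, Mlph, Rab38, Mc1r, Idi1, Nsdhl, S100b, Ndrg1, Atp5md, Csn3, Ccl2 and Cxcl10. Sytl2, Kit, Mgll, Nr4a3, Hpse, Myl9 and Fabp4 were compared in 7, so the remaining setting says nothing about them. No paired analysis was possible because each group has 1 array. Signal over background limits the dim genes.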

Other observations

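Among genes outside the groups above, Itga1, the collagen receptor subunit, was at 530 in BRAF-off, 340 in BRAF-on and 742 on the ZEB2 array (2.18-fold above BRAF-on). Its log2 ratio came under 1 with the floor at the 75th percentile (0.64), the floor added to each signal (just under 1) and the median of its probe sets (0.87), while the list of integrins and laminins had a median log2 ratio of 0.03. Targets of YAP had 9 of 12 members below BRAF-on (50.8% of all genes were) and 0 past 2-fold (1.76% were higher and 0.583% lower). F3 was at 1674 and 1034, Ankrd1 at 3802 and 2523 and Ccn1 at 15011 and 11229 in BRAF-on and on the ZEB2 array. Of the CREB targets, the phosphodiesterase genes Pde4b (245 and 446) and Pde4d (172 and 294) were higher and the repressor gene Crem (402 and 229) was lower. The glutathione transferase gene Gstm1 was 2.14-fold higher, but its log2 ratio was 0.70 without probe sets matching several transcripts.

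Probe sets without a single gene symbol were not used above. Of the 3351 that reached the floor on the ZEB2 array or in BRAF-on, 49 were at least 2-fold higher on the ZEB2 array (1.46%) and 23 at least 2-fold lower (0.686%).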
